A study of Mus musculus with 6 samples.

Results

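Genes of microglia and macrophages were examined in RNA-seq of cultured mouse cortical cells from wild-type (WT) and Fmr1-knockout (KO) pups. The set held 38 gene names, listed by their known use as markers or functional genes of these cells, and all 38 were among the 55367 rows of the count table. Of these, 36 had a mean of at least 10 counts over the libraries and were analyzed. Siglech and Pf4 lay under that minimum and are given by their counts alone.

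Microglia are the resident macrophages of the brain parenchyma. They arise from yolk-sac progenitors, depend on signaling through the CSF1 receptor, and clear debris and synaptic material with the help of complement. Border macrophages live in the meninges and around vessels, share most of the myeloid program with microglia, and are told apart from them by genes such as Mrc1, Pf4 and Lyz2 rather than P2ry12, Sall1 and Siglech.

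All libraries came from C57BL/6J mice. Cortex was dissociated at postnatal day 1 and the cells were kept for 2 days in vitro in neuronal medium, with 3 WT and 3 Fmr1-KO libraries of polyadenylated RNA. Knockout of Fmr1 removes FMRP, whose loss causes fragile X syndrome, and the question asked here is whether the myeloid transcripts of the cultures differed between the genotypes. According to the methods of the study, astrocytes and myelin were removed with antibody-coated beads before plating, and no such step is described for microglia. The study calls its samples independently derived, while the labels name no litter or culture, so P values measure the spread between these libraries.

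Total counts ran from 30348556 to 35126207 per library. Fmr1 was lower in every Fmr1-KO library, at 57.4 ± 3.67 CPM (counts scaled to library size; SD, n = 3) against 113.4 ± 4.50 in WT, so its transcript was reduced and not absent. Differences were widespread, with 3725 of the 16976 genes tested called lower and 3506 called higher in Fmr1-KO at an adjusted P under 0.05 by edgeR. The cultures are labelled cortical neurons and held all 8 pan-neuronal markers, but they were not free of glia. Gfap, the astrocyte filament, stood at 2649 ± 67.0 CPM in WT, and Mbp, a myelin protein, at 1055 ± 65.7 CPM (SD, n = 3).

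Most of the microglia and macrophage genes were lower in Fmr1-KO relative to WT. Of the 36 genes, 32 fell, 1 rose and 3 did not pass a threshold of 0.05 on edgeR's Benjamini-Hochberg adjusted P, computed over all genes, of which 42.6% passed in either direction, 21.9% as lower and 20.7% as higher. By DESeq2 30 fell, against 19.7% of all genes. Their median log2 fold-change was -0.58, against 0.01 for all genes tested. In 30 of the 36 every Fmr1-KO library was below every WT library in CPM, a pattern seen in 26.3% of all genes tested, and in 1 they all lay above, as in 25.4% of all genes. The typical gene of the set stood at 96.1%, 99.2% and 104.4% of its WT mean in the WT libraries and at 66.8%, 68.8% and 71.0% in the Fmr1-KO libraries. The genotypes lay well apart on this measure, and no Fmr1-KO library stood out from the others. In bulk RNA, fewer cells of a type and less RNA per cell cannot be told apart.

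**Figure D1:**
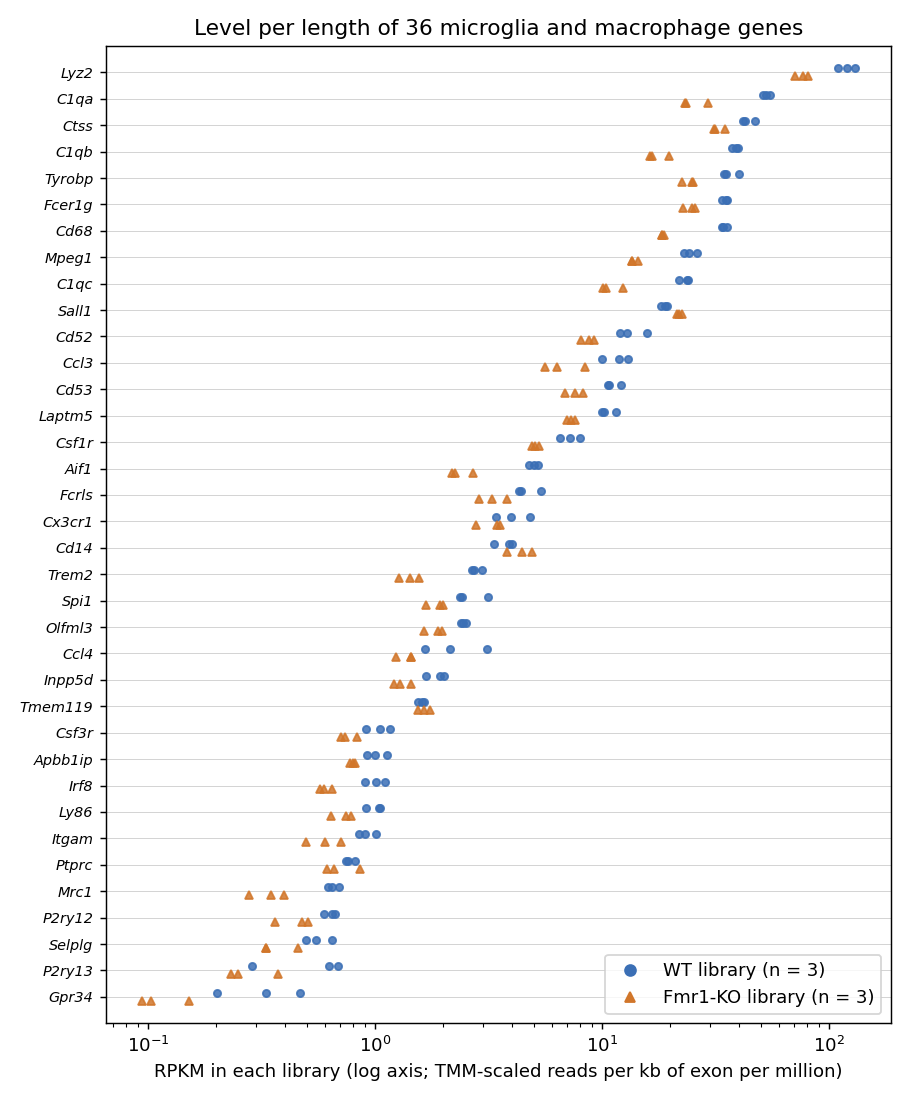
Level of each of the 36 genes in each library, as RPKM, the CPM per kilobase of exon (log axis), with circles for the 3 WT and triangles for the 3 Fmr1-KO libraries, ordered by the WT mean. Lyz2 lies at the top and Gpr34 at the bottom, and for most genes the triangles lie to the left of the circles.

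Per length of exon, the order of the genes in WT ran over more than 2 orders of magnitude. Lyz2, which encodes the bactericidal enzyme lysozyme of macrophages and neutrophils, was the highest, at 119.5 RPKM. C1qa, Ctss, C1qb, Tyrobp, Fcer1g and Cd68 followed, between 52.8 and 34.5 RPKM. These are genes of complement, lysosome and immune-receptor adaptors. The purinergic receptor genes P2ry12 and P2ry13, which are strongly expressed in microglia of the intact brain, were near the bottom, at 0.637 and 0.534 RPKM, and Gpr34 was the lowest at 0.334 RPKM. Mrc1 stood beside P2ry12, at 0.652 RPKM. The spread between replicates was small for most genes, with a median coefficient of variation of 8.24% in WT and 8.95% in Fmr1-KO.

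The identity genes of microglia were taken first. P2ry12 encodes the ADP receptor that guides microglial processes to injury, on the minus strand of chromosome 3 from 59216272 to 59262871 (GRCm38). It had 53, 56 and 55 counts in WT and 42, 37 and 32 counts in Fmr1-KO. Every Fmr1-KO library lay below every WT library, but at these counts the error was wide. Its log2 fold-change of -0.51 (SE 0.19; edgeR adjusted P 0.0329) had a 95% confidence interval from -0.91 to -0.12. The call was lost under DESeq2 (adjusted P 0.15) and without WT replicate 1, 2 or 3 (edgeR adjusted P 0.0504, 0.0807 and 0.0781). Without Fmr1-KO replicate 3 the estimate was -0.37 (edgeR adjusted P 0.167).

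P2ry13, the neighboring ADP receptor gene, had 55, 24 and 58 counts in WT and 19, 29 and 22 counts in Fmr1-KO. WT replicate 2 lay within the range of the Fmr1-KO libraries. The change came to -0.91 on the log2 scale (SE 0.29; edgeR adjusted P 0.0135), and to -1.21 without WT replicate 2. The call was lost without WT replicate 1 (edgeR adjusted P 0.0721), WT replicate 3 (0.0854) or Fmr1-KO replicate 1 (0.0609). Cx3cr1, the receptor for the neuronal chemokine fractalkine, had 756, 509 and 600 counts in WT and 409, 489 and 541 counts in Fmr1-KO. Scaled for depth, its genotypes overlapped, with WT replicate 2 among the Fmr1-KO libraries. The estimate was -0.32 (SE 0.10; edgeR adjusted P 0.0127). Leaving out WT replicate 1 ended that call, with -0.18 (adjusted P 0.145), and so did leaving out Fmr1-KO replicate 1, with -0.22 (adjusted P 0.0942).

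Firmer decreases among the identity genes were those of Fcrls, an Fc receptor-like gene, Olfml3, a secreted olfactomedin protein, and Selplg, the P-selectin ligand. Their log2 fold-changes were -0.50, -0.42 and -0.60, with adjusted P of 0.000550, 9.35e-05 and 0.00707 by edgeR. Gpr34, a lysophosphatidylserine receptor, had the largest log2 fold-change of all 36 genes, at -1.50 (SE 0.36; edgeR adjusted P 0.00212), but it rested on 34, 23 and 14 counts in WT and 7, 6 and 11 in Fmr1-KO.

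Sall1 and Tmem119 did not follow the other identity genes. Sall1, the transcription factor that maintains microglial identity, lies on the minus strand of chromosome 8 from 89027235 to 89044162. It had 3468, 3362 and 3204 counts in WT and 3871, 3502 and 3927 counts in Fmr1-KO, and scaled for depth every Fmr1-KO library was above every WT library. It rose by 0.22 on the log2 scale (SE 0.03; edgeR adjusted P 2.93e-05) and was the only gene of the 36 called higher with all 6 libraries. Its level was far from that of the other identity genes: 18.8 RPKM in WT, against 4.70 RPKM for Fcrls, the next highest of them. As background, Sall1 is also expressed by neural progenitors of the developing brain. Of 10 neural progenitor genes, a list written after the data had been seen, 5 rose, 1 fell and 4 did not pass by edgeR. Of all genes tested, 20.7% rose and 21.9% fell. The median log2 fold-change of the list was 0.13 and the range from -0.40 to 0.52. Named after their values were seen, Sox2 and Fabp7 did not pass, at 0.02 and -0.01, and Hopx fell by 0.40. Vim, an intermediate filament and the gene of highest level in the list, rose by 0.22. The part of progenitors in the Sall1 count was not tested.

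Tmem119, a membrane protein used as a microglial marker and also known from bone-forming cells, had 125, 123 and 127 counts in WT and 132, 117 and 125 counts in Fmr1-KO. Its genotypes overlapped. With a log2 fold-change of 0.04, it had a 95% confidence interval from -0.19 to 0.28 (edgeR adjusted P 0.792), and a decrease as large as the median of the set lay outside the interval. Siglech, a sialic acid-binding receptor of microglia, had 1, 1 and 0 counts in WT and 1, 4 and 0 counts in Fmr1-KO, too few for a comparison in either direction. Of the 9 identity genes analyzed, 7 fell and 1 rose, against 21.9% lower and 20.7% higher over all genes. Their median log2 fold-change was -0.50. Without WT replicate 1, 4 of them were called lower.

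**Figure D2:**
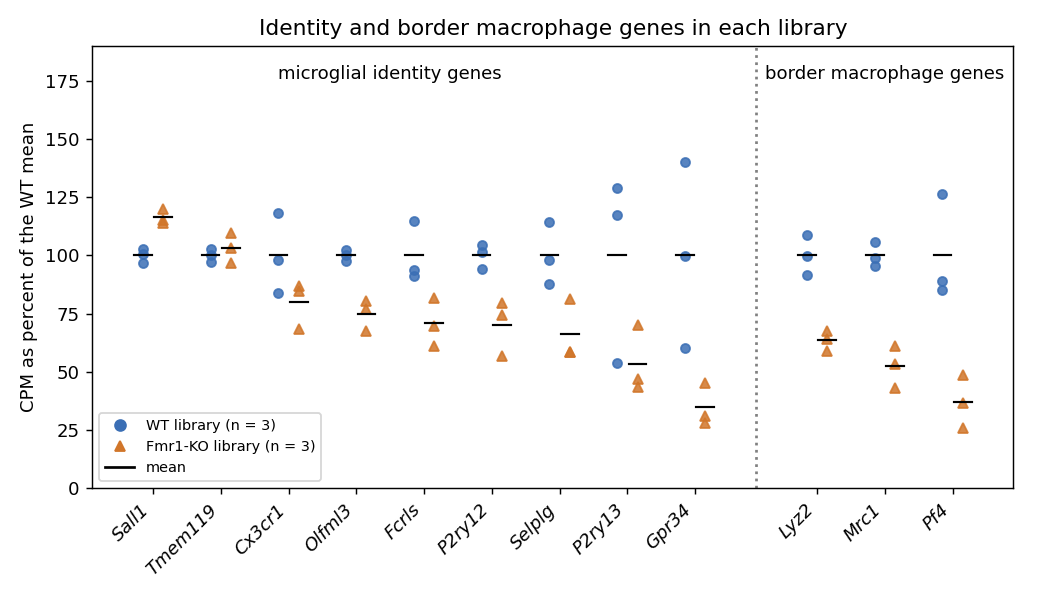
CPM of identity and border macrophage genes in each library as percent of the WT mean, with circles for WT, triangles for Fmr1-KO and bars for the mean of 3 libraries. Pf4 had a mean under 10 counts. The 3 border genes lie between 37.0% and 63.5% of WT in the Fmr1-KO mean, while the identity genes spread from 34.7% for Gpr34 to 116% for Sall1.

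Both border macrophage genes above the count minimum fell. Mrc1 encodes the mannose receptor, an endocytic receptor for glycoproteins, on the plus strand of chromosome 2 from 14229392 to 14332057. It had 153, 131 and 137 counts in WT and 58, 68 and 88 counts in Fmr1-KO. The highest Fmr1-KO library was well below the lowest WT library. Mrc1 fell by 0.93 on the log2 scale (SE 0.14; edgeR adjusted P 1.16e-05), a fall to 52.4% of WT, and the estimate stayed between -1.06 and -0.80 when any library was left out.

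Lyz2, on the minus strand of chromosome 10 from 117277331 to 117282321, had 5004, 5194 and 5703 counts in WT and 3272, 3251 and 3231 counts in Fmr1-KO. Replicates were close to each other, and the genotypes did not overlap. Lyz2 had a fold-change of -0.66 on the log2 scale (SE 0.05; edgeR adjusted P 1.23e-09). Its level was far from that of Mrc1, at 119.5 RPKM in WT against 0.652 RPKM. Which cells made the Lyz2 RNA was not tested, so its fall cannot be assigned to border macrophages. Pf4, a chemokine of platelets that border macrophages also make, had 11, 10 and 15 counts in WT and 3, 4 and 6 counts in Fmr1-KO. All Fmr1-KO libraries were lower, on very few counts.

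Further genes of border macrophages were taken from a separate list. Of 12, 6 had enough counts to be tested and all 6 fell, with a median log2 fold-change of -1.05. Of all genes tested, 21.9% fell. Stab1, a scavenger receptor, fell by 0.87, Cd36, the fatty acid and lipoprotein receptor, by 1.14, Ms4a7 by 0.56, and Cd38, an NAD-consuming ectoenzyme, by 1.95 on the log2 scale, and each passed the threshold. The classical perivascular markers Cd163 and Lyve1 were too low to be tested, with mean counts of 4.33 and 3.67, and Cd209f had no count. Stab1 and Cd36 are also expressed by endothelial cells. The study's methods describe a strainer step meant to take out blood vessels before plating. Of 7 endothelial genes 4 were tested, of which 2 rose and 1 fell, against 20.7% higher and 21.9% lower over all genes. Kdr, the endothelial gene of highest level, rose by 1.23 on the log2 scale. The others tested are named outside the rule of highest level: Flt1 rose by 0.41, Cdh5 fell by 0.66, and Pecam1 did not pass, at 0.35. The part of endothelial or other cells in the border genes, Cd38 among them, was not tested.

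The 9 identity genes had a median of -0.50 on the log2 scale, and Mrc1 and Lyz2 had -0.79, a difference of 0.30. Without Sall1 and Tmem119, a choice made after their values were seen, the identity median was -0.51 and the difference 0.28. The difference of the medians is a description and was not tested, since it rests on 2 border genes of very unlike level. The ratio of Mrc1 to P2ry12 counts within a library needs no scaling. It was 2.89, 2.34 and 2.49 in WT and 1.38, 1.84 and 2.75 in Fmr1-KO. Fmr1-KO replicate 3 lay among the WT libraries. On the log2 scale the ratio was 0.42 lower in Fmr1-KO, at 0.93 ± 0.49 against 1.35 ± 0.15 (SD, n = 3; exact permutation test, 2-sided, P = 0.3, where 0.1 is the smallest that 3 against 3 can give). A test of this size cannot reach 0.05, so it does not say whether Mrc1 and P2ry12 changed differently. The ratio was lower by 0.68 without Fmr1-KO replicate 3 and 0.19 without Fmr1-KO replicate 1.

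Of 7 lineage factors and receptors 6 fell, against 21.9% of all genes, with a median log2 fold-change of -0.51. Spi1, which encodes PU.1, the master regulator of the macrophage lineage, had 223, 215 and 282 counts in WT and 175, 160 and 158 counts in Fmr1-KO. No Fmr1-KO library reached the WT range. Spi1 fell by 0.50 on the log2 scale (SE 0.11; edgeR adjusted P 0.00135). Irf8, its partner factor in myeloid cells, had 271, 211 and 237 counts in WT and 131, 140 and 147 counts in Fmr1-KO, with a log2 fold-change of -0.73 (SE 0.10; edgeR adjusted P 7.30e-06).

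Csf1r, the receptor on which microglial survival depends, had 1452, 1250 and 1539 counts in WT and 991, 899 and 991 counts in Fmr1-KO. Its replicates lay close together and apart from the other genotype, with a log2 fold-change of -0.51 (SE 0.06; edgeR adjusted P 4.55e-07). Aif1, which encodes the actin-binding protein IBA1 widely used to stain microglia, fell to 47.4% of WT (log2 fold-change -1.07, edgeR adjusted P 4.07e-08). Csf3r, the receptor for granulocyte colony-stimulating factor, and Itgam, the integrin chain CD11b, had log2 fold-changes of -0.46 and -0.61 and passed the threshold. Of the 5024 exon bases of Itgam, 3450 are shared with an annotated gene model on the same strand, so its count may hold part of its reads.

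Ptprc, the pan-leukocyte phosphatase CD45, was the exception in this group. It had 486, 453 and 499 counts in WT and 394, 481 and 393 counts in Fmr1-KO. Scaled for depth, Fmr1-KO replicate 2 was above every WT library and the other two lay below. The log2 fold-change was -0.13, with a 95% confidence interval from -0.32 to 0.06 (edgeR adjusted P 0.280), and without Fmr1-KO replicate 2 it was -0.28 and passed (adjusted P 0.00748).

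TREM2 is a lipid-sensing receptor of microglia that signals through the adaptor TYROBP, also called DAP12. Trem2 had 511, 439 and 451 counts in WT and 206, 216 and 268 counts in Fmr1-KO. It fell to 50.8% of WT, with a log2 fold-change of -0.97 (SE 0.08; edgeR adjusted P 5.20e-09). Its adaptor Tyrobp had 811, 758 and 896 counts in WT and 488, 513 and 579 counts in Fmr1-KO, with a log2 fold-change of -0.59 (SE 0.07; edgeR adjusted P 3.92e-07). The 95% confidence interval was -1.15 to -0.80 for Trem2 and -0.74 to -0.45 for Tyrobp, and the difference itself was not tested. Fcer1g, the adaptor of Fc receptors, Inpp5d, the phosphatase SHIP1 that restrains this signaling, and Apbb1ip, an integrin-activating adaptor, had log2 fold-changes of -0.51, -0.52 and -0.35. All 5 genes of this group fell, and in all 5 the genotypes did not overlap. Of all genes tested, 21.9% fell, and 26.3% had every Fmr1-KO library below every WT library.

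The chains of C1q, the molecule that starts the classical complement cascade and tags synapses for removal, were among the genes that fell most, with a median log2 fold-change of -1.08. C1qa, C1qc and C1qb lie next to each other on the minus strand of chromosome 4, from 136895917 to 136898803, 136889804 to 136893065 and 136880129 to 136886187. C1qa had 1900, 1763 and 1897 counts in WT and 785, 748 and 1065 counts in Fmr1-KO. C1qb had 1471, 1340 and 1439 counts in WT and 585, 543 and 749 counts in Fmr1-KO. C1qc had 1612, 1400 and 1532 counts in WT and 654, 600 and 831 counts in Fmr1-KO. Fmr1-KO replicate 3 had the most counts of each chain among the Fmr1-KO libraries, yet stayed far below WT. The log2 fold-changes were -1.05, -1.13 and -1.08 (SE 0.06 each), with adjusted P of 3.04e-11, 5.52e-12 and 1.43e-11 by edgeR. The Fmr1-KO means were 48.0%, 45.5% and 47.2% of WT, so the 3 chains kept nearly the same proportion to each other. Without Fmr1-KO replicate 3 the log2 fold-changes were larger, at -1.18, -1.23 and -1.18.

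Of the lysosomal and phagocytic genes, Cd68, a glycoprotein of late endosomes, had 1556, 1407 and 1426 counts in WT and 754, 719 and 803 counts in Fmr1-KO. Its Fmr1-KO libraries varied by 0.908% after scaling, the smallest spread in the set. Cd68 fell by 0.90 on the log2 scale (SE 0.05; edgeR adjusted P 2.82e-12). Mpeg1, a pore-forming protein of phagosomes, fell by 0.82 on the log2 scale (edgeR adjusted P 6.37e-12). Ctss, the protease cathepsin S, had 2017, 1878 and 2134 counts in WT and 1372, 1453 and 1492 counts in Fmr1-KO. Its log2 fold-change of -0.43 (SE 0.05; edgeR adjusted P 4.85e-07) was the smallest of this group, and Laptm5, a lysosomal membrane protein of hematopoietic cells, had -0.53.

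Among other surface proteins of leukocytes, Cd52, a small glycopeptide, Cd53, a tetraspanin, and Ly86, the secreted partner of an endotoxin-sensing receptor, fell, with log2 fold-changes of -0.64, -0.57 and -0.46. Cd14, the lipopolysaccharide co-receptor, did not. It had 201, 222 and 232 counts in WT and 251, 261 and 229 counts in Fmr1-KO, and after scaling Fmr1-KO replicate 3 lay within the WT range. The log2 fold-change was 0.23, with a 95% confidence interval from 0.01 to 0.44 (edgeR adjusted P 0.0862), and without Fmr1-KO replicate 3 it was 0.32 and passed as higher (adjusted P 0.0209).

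The chemokines Ccl3 and Ccl4 attract leukocytes and are made by activated microglia. Ccl3 had 265, 328 and 304 counts in WT and 210, 148 and 150 counts in Fmr1-KO, with a log2 fold-change of -0.77 (SE 0.12; edgeR adjusted P 3.27e-05). Ccl4 had 38, 68 and 47 counts in WT and 31, 25 and 33 counts in Fmr1-KO. WT replicate 2 was the highest library of both, and the genotypes did not overlap in either gene. For Ccl4 the estimate was -0.73 (SE 0.23; edgeR adjusted P 0.0143), and its call was lost under DESeq2 (adjusted P 0.0550), without WT replicate 2 (-0.46, edgeR adjusted P 0.131) and without Fmr1-KO replicate 2 (-0.67, edgeR adjusted P 0.0521).

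**Figure D3:**
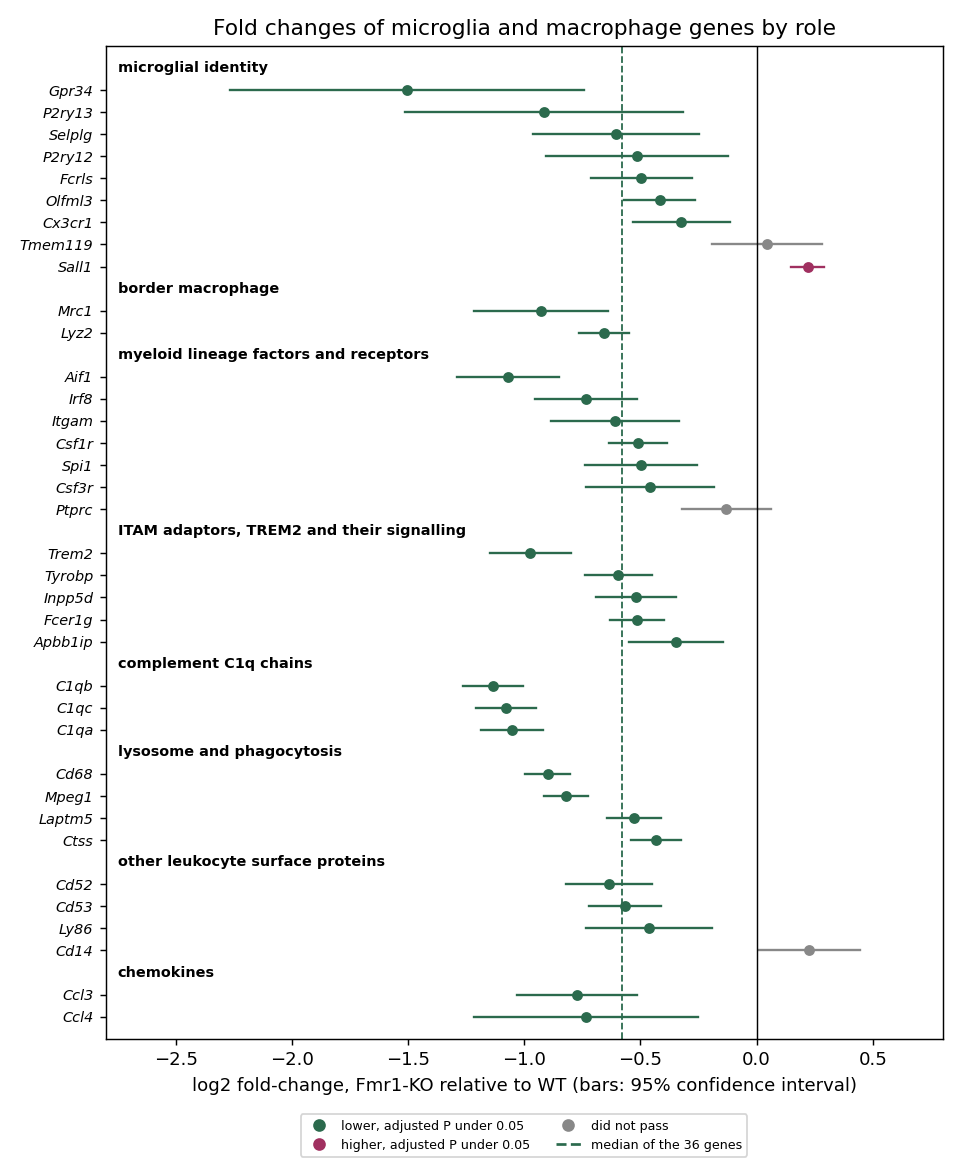
Log2 fold-change of each of the 36 genes in Fmr1-KO relative to WT, grouped by role, with 95% confidence intervals as bars and a dashed line at the median of -0.58. The C1q chains lie to the left of that line with narrow bars. Tmem119, Sall1 and Cd14 alone have positive values, and Ptprc has the smallest negative one.

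The promoter sequences of the set were searched for the PU.1 core GAGGAAGT on both strands. RefSeq windows (GRCm38.p6), from 250 bases before to 50 after a transcript start, were found for 28 of the 38 genes, in 32 windows. The core was present in 6 of these windows (18.8%), those of Inpp5d, Apbb1ip, Ctss, Cd53, C1qc and Pf4, against 3.20% of all 32851 windows. The ETS-IRF composite site, bound by PU.1 together with IRF8 and spelled here as GGAA, any 2 bases and GAAA, was present in 1 window, that of Cd68 (3.12%), against 2.72% of all windows. No window of the set held both. In Inpp5d the core lay 20 to 13 bases before the RefSeq start and in C1qc, in the reverse orientation, 195 to 188 bases before it. These 2 upstream stretches are shown because, of the genes that passed the count minimum, these hold the whole core before the start. Both genes fell, Inpp5d by 0.52 and C1qc by 1.08, as did most of the set (32 of the 36 genes analyzed). Capitals mark the core or its reverse complement. The C1qc stretch, of 99 bases, stops where the GENCODE transcript begins, upstream of the RefSeq start. Its 195 to 188 bases are therefore not counted from the end of the stretch.
Inpp5d, chr1:87620062-87620311, plus strand: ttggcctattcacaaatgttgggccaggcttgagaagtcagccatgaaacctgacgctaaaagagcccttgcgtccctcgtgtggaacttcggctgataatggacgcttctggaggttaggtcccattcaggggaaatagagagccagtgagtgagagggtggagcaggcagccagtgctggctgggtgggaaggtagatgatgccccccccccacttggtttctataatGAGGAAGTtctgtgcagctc
C1qc, chr4:136893066-136893164, minus strand: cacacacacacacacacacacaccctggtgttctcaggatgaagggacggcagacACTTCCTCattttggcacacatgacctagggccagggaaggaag
A match describes these letters only and is not evidence of binding.

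Other genes of the myeloid program were compared next, from lists written from general knowledge but with earlier results of these data known. Of 40 further microglial and myeloid genes, 39 were tested, of which 31 fell and 8 did not pass by edgeR. Of all genes tested, 21.9% fell. Their median log2 fold-change was -0.44. Among those with the highest levels were Adgre1, the macrophage antigen F4/80, Cybb, a subunit of the phagocyte oxidase, and Coro1a, an actin regulator of leukocytes. They fell by 0.54, 0.72 and 0.53 on the log2 scale. The summed level of the list ran from 611 to 682 CPM in WT and from 440 to 473 CPM in Fmr1-KO, with no overlap.

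Most genes of activated postnatal microglia fell, but not all. Of 14, 9 fell and 3 rose, with a median log2 fold-change of -0.42. Of all genes tested, 21.9% fell and 20.7% rose. The lysosomal proteases Ctsb and Ctsd fell by 0.40 and 0.23, while Apoe, a lipid carrier that astrocytes also make, rose by 0.16 and Cd63, a tetraspanin of many cell types, rose by 0.15 on the log2 scale. The log2 fold-changes of the list ran from -1.60 for Clec7a to 0.17 for Axl, named here only as its ends, and 2 genes did not pass. Of 16 inflammatory genes 12 were tested and 8 fell, against 21.9% of all genes. Among those that fell were Nfkbia, Ccl9 and Tlr2, by 0.37, 0.37 and 0.39. Cxcl10, an interferon-induced chemokine, had -0.27 (edgeR adjusted P 0.115), and without WT replicate 2 it passed with -0.36 (adjusted P 0.0469). Of 5 MHC class II genes 3 were tested and 1 fell, too few to set against the 21.9% of all genes that fell. Cd74, the invariant chain of these molecules, had 0.31 (edgeR adjusted P 0.111), and without WT replicate 3 it passed as higher with 0.44 (adjusted P 0.0403).

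Ligands of receptors in the set and of other receptors on myeloid cells were counted in the same libraries. As background, they are made largely by neurons and glia. Of 7 ligands 5 fell and 1 rose, against 21.9% lower and 20.7% higher over all genes. Csf1, one of the growth factors bound by CSF1R, rose by 0.21 on the log2 scale (edgeR adjusted P 0.000179), opposite in sign to its receptor. Il34, the other ligand of CSF1R, had a log2 fold-change of -0.80 (edgeR adjusted P 0.0113) and lost the call without WT replicate 3, Fmr1-KO replicate 1 or Fmr1-KO replicate 2 (adjusted P 0.0554, 0.0787 and 0.0540). Cx3cl1, the fractalkine bound by CX3CR1, fell by 0.49 (edgeR adjusted P 1.39e-08). Il34 and Cx3cl1 were picked from the list after their values had been seen. Cd200 and Cd47, surface proteins that restrain microglia, fell by 0.43 and 0.48, and Tgfb2, a growth factor, had 0.05 (edgeR adjusted P 0.463).

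**Figure D4:**
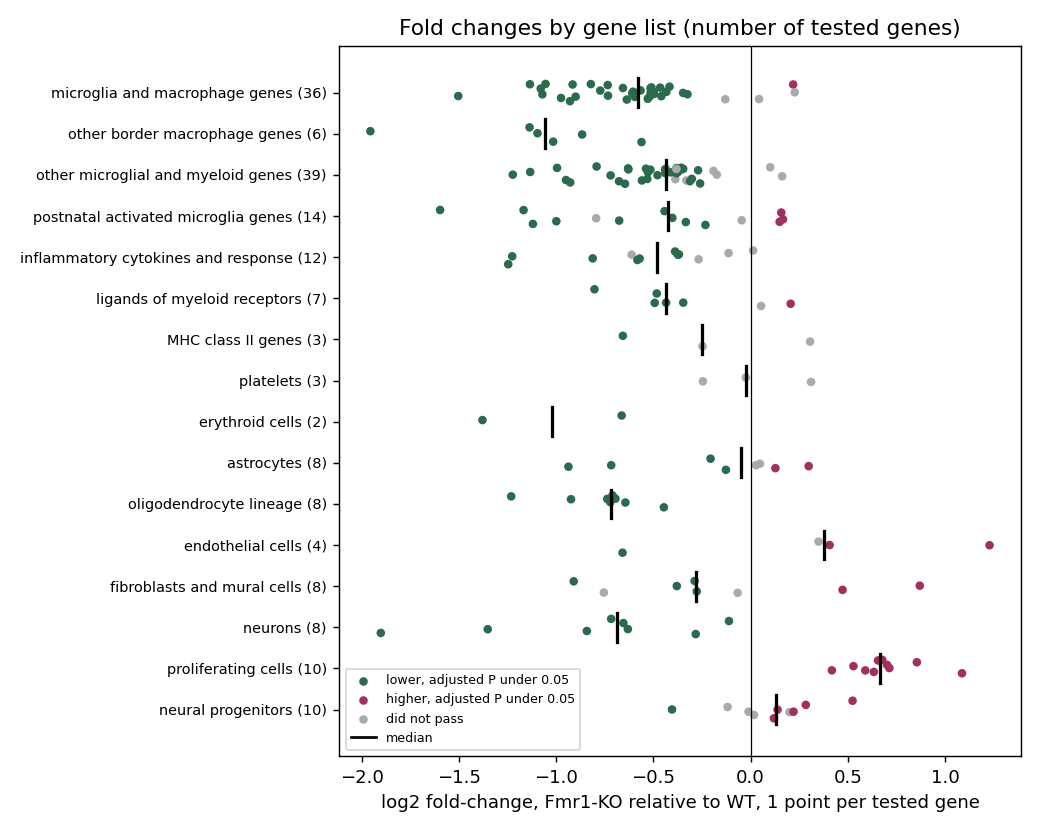
Log2 fold-change of each tested gene in Fmr1-KO relative to WT, by gene list, with the number of tested genes in parentheses, a vertical bar at each median and gray points for genes that did not pass an adjusted P of 0.05 by edgeR. The myeloid lists lie mostly left of 0, as do the oligodendrocyte and neuron lists, while the proliferation genes lie to the right.

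Some of the 38 genes are also made by blood cells. Of 12 genes of monocytes and neutrophils none had enough counts to be tested, and their summed level ran from 0.748 to 1.03 CPM in WT and from 0.131 to 0.338 CPM in Fmr1-KO. The defining genes Ly6c2 of monocytes and Ly6g of neutrophils had no count in any library. The 10 lymphocyte genes summed to between 0.330 and 0.544 CPM in WT and between 0.523 and 0.80 CPM in Fmr1-KO, and Cd3g and Ms4a1 had no count. Lyz2 itself stood at 157 ± 13.5 CPM in WT and 99.9 ± 6.70 CPM in Fmr1-KO (SD, n = 3). For Pf4, of 6 platelet genes Ppbp and Gp1ba had mean counts of 0.167 and 0.333, and Gp9 had no count. The other 3 were tested, with log2 fold-changes from -0.24 to 0.31 that did not pass by edgeR. Itga2b, the highest of them (adjusted P 0.114), passed without WT replicate 1 (0.47, adjusted P 0.0397). Of 6 erythroid genes 2 were tested and called lower, against 21.9% of all genes. Hba-a1, a hemoglobin chain with a near-identical copy that may share its reads, is named outside the rule of highest level. It had a log2 fold-change of -1.38 (edgeR adjusted P 0.00254), with every Fmr1-KO library below every WT library. Hbb-bs, another hemoglobin chain, on a mean of 26.8 counts, had -0.66 (edgeR adjusted P 0.0462), and the call was lost when any of 4 libraries was left out: WT replicate 1 (0.0701), WT replicate 3 (0.240), Fmr1-KO replicate 2 (0.142) or Fmr1-KO replicate 3 (0.144).

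The microglia and macrophage genes were not the only cell-type genes that differed. All 8 oligodendrocyte-lineage genes fell, with a median log2 fold-change of -0.72, and all 8 neuronal genes fell, with a median of -0.68. Of 8 astrocyte genes 4 fell and 2 rose, with a median of -0.05. All 10 proliferation genes rose, with a median of 0.67, and their summed level ran from 499 to 538 CPM in WT and from 860 to 918 CPM in Fmr1-KO. Of 8 fibroblast and mural genes 4 fell and 2 rose. Of all genes tested, 21.9% fell and 20.7% rose. The part of the cell makeup of the cultures in the decrease of the myeloid genes was not tested.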

How the data were processed

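RNA was measured by stranded polyadenylated RNA-seq (single-end reads of 100 bases) in 3 WT and 3 Fmr1-KO libraries. The authors trimmed reads with FastP, aligned them to GRCm38 with STAR (2.7.6a) and deposited raw counts per gene name, made on the reverse strand over exons with featureCounts (Subread 2.0.1). Versions are from the submitters' processing notes. Counting by name over exons leaves out reads shared by overlapping genes on the same strand.

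Groups came from the sample labels. The 16976 genes that passed edgeR's expression filter were scaled by TMM and compared by edgeR's quasi-likelihood test (edgeR 4.0.16, R 4.3.3), with Benjamini-Hochberg adjustment over all of them and a threshold of 0.05. Fold-changes are Fmr1-KO relative to WT, and SE and 95% intervals come from that fit. CPM are TMM-scaled, and RPKM divides CPM by the union exon length of GENCODE M21 (GRCm38), where all 38 genes were found by name. The ratio of Mrc1 to P2ry12 was compared by an exact permutation test (scipy 1.17.1). Libraries of 1 genotype differed beyond counting error (chi-square per degree of freedom 2.93 in WT and 3.18 in Fmr1-KO).

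All genes of the set with a mean of at least 10 counts are named. From each other list the counts of calls and up to 4 genes of highest level are given, and genes outside that rule are marked where they appear. A gene that the rule would name is not reported here. The set and all lists were chosen with earlier results of these data known, so their counts are descriptions and no P was computed over a list. Alternatives were DESeq2 (1.42.0), other scalings, other count filters, a replicate block, and leaving out each library.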

Additional observations from a re-analysis of the deposited data

How the results depend on the processing

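Of 969 values for 70 single genes under the alternatives, 937 kept their direction and their side of the threshold, 25 lost a call, 5 gained one and 2 changed sign: Tmem119 was -0.00227 without Fmr1-KO replicate 1 and ranged up to 0.0885 with another library left out, and Tgfb2 ran from -0.0237 without WT replicate 2 to 0.108. Over all settings between 28 and 33 of the genes analyzed were called lower. When each library was left out in turn, 29 to 32 were called lower and 1 or 2 higher, the second being Cd14 without Fmr1-KO replicate 3, and their median log2 fold-change ran from -0.61 to -0.51. With each library left out, 4 to 7 of the identity genes were called lower, their median ran from -0.50 to -0.40, and the identity minus border difference ran from 0.27 to 0.38. With a minimum mean of 50 counts 4 identity genes were called lower, their median was -0.37 and the difference 0.42, since fewer genes were kept. With no filter, which adds Pf4 to the border genes and Siglech to the identity genes, the border median was -0.93 and the difference 0.47. With Pf4 alone added, a choice made after the data were seen, the difference was 0.43. The border median was -0.97 with the other border genes added, and the difference was 0.65 for P2ry12 and Sall1 alone. The replicate numbers do not pair the libraries (correlations of deviations -0.0496, 0.0469 and 0.000739), and the fit with the replicate block called 33 genes of the set, 32 lower and 1 higher. At the depth of these libraries Siglech, Cd163 and Lyve1 could not be compared, and the counts of Pf4, P2ry12, P2ry13, Gpr34 and Ccl4 leave wide errors.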
